A study of Mus musculus and Rattus norvegicus with 85 samples.

Results

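The genes of cholesterol and fatty acid synthesis were followed in the lungs of mice and rats that inhaled chloroprene, a chlorinated diene monomer. The members were 35 named genes: 7 of the mevalonate and isoprenoid steps, 11 of the steps from squalene to sterol, 5 regulators and transport genes, 6 genes of acetyl-CoA and fatty acid supply, and 6 of elongation, desaturation and glycerolipid synthesis. All probe sets with 1 of these symbols in the array annotation were taken, whatever their values. In the mouse 34 of the 35 genes were found, on 80 probe sets of which 69 were kept, and all 34 entered the test among 13796 genes. In the rat 34 were found, on 58 probe sets of which 52 were kept, and 33 entered the test among 11010 genes. Acat2 had no probe set of its own in the mouse annotation and Hmgcs1 none in the rat annotation, and the rat Elovl6 signal was too low to be kept.

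The 85 animals were females, 10 weeks old when exposure began, held in whole-body chambers for 6 h per day on 5 days per week, and RNA came from right lung lobes. There were 17 groups of 5 animals. B6C3F1/Crl mice breathed chloroprene at 0.3, 2, 13 and 90 ppm, with a 0 ppm group at the earlier time, for 5 or 15 exposure days (the latter reached on study day 19). Rats breathed 5, 30, 90 and 200 ppm for the same times. Their strain is spelled F334/NCrl in the sample labels and F344/NCrl in the design text. Mice at 0 ppm for 15 days and rats at 0 ppm were not analysed here, so the lowest concentration of the same time was the reference there. Each animal gave 1 array, named here by its animal number. The alveolar type 2 marker Sftpc lay between 15.22 and 15.33 in the 45 mice, close to the top of the scale.

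Cholesterol is built from acetyl-CoA through mevalonate, isoprenoid units, squalene and lanosterol. The transcription factors of the SREBP family, encoded by Srebf1 and Srebf2, switch on these enzymes and those of fatty acid synthesis. They are escorted from the endoplasmic reticulum by Scap when sterols are low and are held there by Insig proteins when sterols are plentiful. In the lung, alveolar type 2 cells make fatty acids and phospholipids for surfactant. Values below are the authors' deposited log2 signals per probe set, a change is a difference of group means on that scale with its standard error (SE), and a gene is said to have fallen or risen where limma's Benjamini-Hochberg adjusted p over all genes of the comparison was under 0.05. Because whole lung was measured, fewer cells of a type and less RNA per cell cannot be told apart.

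Promoters of 7 mouse members are shown because these genes changed most clearly at 90 ppm after 5 days. Each run holds 250 bases before the transcript start and the first 50 transcribed bases, from RefSeq on GRCm38.p6, read 5′ to 3′ on the gene's strand. Capitals mark a CCAAT box or the sterol regulatory element TCACNCCAC on either strand, so that CCAAT read on the other strand appears as ATTGG. Hmgcs1 lies at chr13:119690101-119690400 on the + strand, Idi1 at chr13:8885356-8885655 on the + strand, Cyp51 at chr5:4104648-4104947 on the - strand and Sc5d at chr9:42264251-42264550 on the - strand. Msmo1 lies at chr8:64733529-64733828 and Hsd17b7 at chr1:169969156-169969455, both on the - strand, and Acss2 at chr2:155517793-155518092 on the + strand.
Hmgcs1: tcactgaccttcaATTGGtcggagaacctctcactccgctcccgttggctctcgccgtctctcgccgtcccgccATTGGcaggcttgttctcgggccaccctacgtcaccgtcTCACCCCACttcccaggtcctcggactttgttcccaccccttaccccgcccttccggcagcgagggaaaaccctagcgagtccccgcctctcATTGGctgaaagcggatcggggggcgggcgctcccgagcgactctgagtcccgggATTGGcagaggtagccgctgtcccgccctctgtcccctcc
Idi1: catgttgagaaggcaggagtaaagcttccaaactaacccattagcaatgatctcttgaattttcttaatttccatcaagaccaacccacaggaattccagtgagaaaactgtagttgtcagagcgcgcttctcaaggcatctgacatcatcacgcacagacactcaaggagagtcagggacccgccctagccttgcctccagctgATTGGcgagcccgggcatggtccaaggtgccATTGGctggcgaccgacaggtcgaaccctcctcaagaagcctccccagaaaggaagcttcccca
Cyp51: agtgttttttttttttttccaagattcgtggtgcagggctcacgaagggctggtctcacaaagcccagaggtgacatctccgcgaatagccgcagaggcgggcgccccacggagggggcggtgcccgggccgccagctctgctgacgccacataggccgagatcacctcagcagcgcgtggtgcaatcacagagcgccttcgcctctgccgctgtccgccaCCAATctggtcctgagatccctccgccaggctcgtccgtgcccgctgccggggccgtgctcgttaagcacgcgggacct
Sc5d: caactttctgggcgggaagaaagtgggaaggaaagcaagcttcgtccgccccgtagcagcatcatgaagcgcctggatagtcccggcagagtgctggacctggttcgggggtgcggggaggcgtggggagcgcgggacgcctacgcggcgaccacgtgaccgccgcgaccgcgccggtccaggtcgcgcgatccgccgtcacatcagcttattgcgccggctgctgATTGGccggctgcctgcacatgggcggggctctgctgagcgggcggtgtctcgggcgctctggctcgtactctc
Msmo1: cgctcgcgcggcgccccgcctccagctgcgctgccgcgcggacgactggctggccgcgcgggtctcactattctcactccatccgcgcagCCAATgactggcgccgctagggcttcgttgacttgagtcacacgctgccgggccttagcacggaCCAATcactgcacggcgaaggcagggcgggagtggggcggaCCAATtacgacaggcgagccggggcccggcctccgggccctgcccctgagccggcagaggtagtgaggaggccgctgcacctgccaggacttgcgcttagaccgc
Hsd17b7: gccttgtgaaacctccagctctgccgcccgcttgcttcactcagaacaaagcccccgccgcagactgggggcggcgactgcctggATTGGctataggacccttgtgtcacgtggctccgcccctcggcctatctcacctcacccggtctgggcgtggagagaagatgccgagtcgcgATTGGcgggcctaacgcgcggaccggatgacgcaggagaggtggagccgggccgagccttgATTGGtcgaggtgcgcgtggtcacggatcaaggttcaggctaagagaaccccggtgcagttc
Acss2: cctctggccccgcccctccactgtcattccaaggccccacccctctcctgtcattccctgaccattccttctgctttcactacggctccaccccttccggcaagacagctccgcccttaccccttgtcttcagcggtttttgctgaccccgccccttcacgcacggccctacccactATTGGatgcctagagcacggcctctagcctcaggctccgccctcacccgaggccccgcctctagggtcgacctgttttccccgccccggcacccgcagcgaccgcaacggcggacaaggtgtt

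The 7 promoters differed in how many boxes they held. Hmgcs1 held 4 CCAAT boxes and, starting 137 bases before the transcript start, the letters TCACCCCAC. Msmo1 and Hsd17b7 held 3 CCAAT boxes each, Idi1 held 2, and Cyp51, Sc5d and Acss2 held 1 each. RefSeq promoters were at hand for 28 member genes, and 22 of them (78.6%) held a CCAAT box in this window, against 11096 of 27025 genes (41.1%). The sterol element was found in 1 of the 28 member genes, Hmgcs1 (3.57%), against 388 of 27025 genes (1.44%). No CCAAT match overlapped a sterol element match. A match is a run of letters in a 300 base window and not a measured binding site. Fads1, Fdft1, Fdps, Scd1, Scd2, Sqle and Stard4 had no entry.

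In mice at 90 ppm for 5 days, 10 of 34 members fell and 1 rose against 0 ppm, where 7.35% of all genes fell and 8.99% rose. The falls were mostly in cholesterol synthesis: 2 of 6 mevalonate and isoprenoid genes, 5 of 11 genes from squalene to sterol and 2 of 5 regulators and transport genes, with 1 of 6 genes of elongation, desaturation and glycerolipid synthesis. Of 6 genes of acetyl-CoA and fatty acid supply none fell and Acss2 rose. The median change over the 34 members was -0.17, against 0.01 over all genes, and 76.5% of members against 47.1% of all genes were below zero. Every 90 ppm mouse lay below every 0 ppm mouse for 8 members, where 6.22% of all genes separated in that way, and above for 2, where 7.99% did.

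Hmgcs1 makes HMG-CoA, the precursor of mevalonate. Its signal was 11.45, 11.59, 11.44, 11.56 and 11.44 in the 5 mice at 0 ppm, 11.40, 11.08, 11.59, 11.54 and 11.13 at 0.3 ppm, and 10.38, 11.14, 11.02, 11.21 and 10.92 at 90 ppm. All 90 ppm mice lay below the 0 ppm mice, with mouse 165 far below the others, while 2 of them overlapped the 0.3 ppm mice. Hmgcs1 fell by 0.56 (SE 0.12) against 0 ppm, 1.47-fold (adjusted p = 0.00085), and by 0.41 against 0.3 ppm (adjusted p = 0.022). Idi1 interconverts the isoprenoid building blocks. Idi1 was at 9.89, 9.96, 9.86, 10.03 and 9.80 at 0 ppm, at 9.69, 9.57, 10.17, 10.15 and 10.18 at 0.3 ppm, and at 8.39, 9.22, 9.20, 9.40 and 9.04 at 90 ppm. The 90 ppm mice lay below both reference groups, and mouse 165 was again the lowest. The fall in Idi1 was 1.81-fold against 0 ppm, a change of -0.86 (SE 0.17, adjusted p = 0.00044), and its change against 0.3 ppm was -0.90 (adjusted p = 0.00041). The other 4 genes of these steps did not pass, with Pmvk at 0.34 (adjusted p = 0.075), Fdps at -0.31 (adjusted p = 0.081), Mvd at -0.14 and Mvk at -0.04.

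Cyp51, the lanosterol demethylase, separated cleanly. It was at 8.83, 8.83, 8.84, 9.07 and 8.93 at 0 ppm, at 8.84, 8.67, 9.12, 8.85 and 8.91 at 0.3 ppm, and at 8.26, 8.38, 8.12, 8.31 and 8.07 at 90 ppm. No 90 ppm mouse reached either reference group. Cyp51 fell 1.59-fold against 0 ppm, a change of -0.67 (SE 0.10, adjusted p = 2.9e-06), and by 0.65 against 0.3 ppm (adjusted p = 8.9e-06). Sc5d, which introduces a late double bond of the sterol ring, was at 9.78, 9.93, 9.71, 9.87 and 10.24 at 0 ppm, at 9.77, 9.75, 9.85, 9.76 and 9.66 at 0.3 ppm, and at 9.10, 9.26, 9.25, 9.14 and 9.06 at 90 ppm. The groups did not overlap, and the fall was 1.67-fold against 0 ppm, with a change of -0.74 (SE 0.12, adjusted p = 1.6e-05). Against 0.3 ppm Sc5d fell by 0.59 (adjusted p = 0.00063).

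Msmo1, Hsd17b7 and Nsdhl take part in removing the methyl groups at carbon 4 of the sterol ring. Msmo1 was at 10.20, 10.11, 10.35, 10.34 and 10.22 at 0 ppm, at 10.10, 9.95, 10.37, 10.18 and 10.21 at 0.3 ppm, and at 9.86, 9.65, 9.52, 9.81 and 9.67 at 90 ppm. Hsd17b7 was at 8.84, 8.77, 8.83, 9.04 and 8.72 at 0 ppm, at 8.82, 8.76, 8.82, 8.70 and 8.59 at 0.3 ppm, and at 8.36, 8.29, 8.18, 8.30 and 8.44 at 90 ppm. For both genes the 90 ppm mice lay below all mice of both reference groups. Msmo1 fell by 0.54 against 0 ppm (SE 0.10, adjusted p = 0.00022) and by 0.46 against 0.3 ppm (adjusted p = 0.0024). Hsd17b7 fell by 0.53 (SE 0.10, adjusted p = 0.00011) and by 0.43 (adjusted p = 0.0024). Nsdhl fell less, by 0.24 against 0 ppm (adjusted p = 0.025, lost without any one of 5 of the 10 mice), and did not pass against 0.3 ppm (-0.19, adjusted p = 0.12).

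The remaining 6 genes from squalene to sterol did not pass. Sqle, squalene epoxidase, was at 10.30, 10.19, 9.98, 10.40 and 10.06 at 0 ppm, at 10.05, 9.98, 10.20, 10.05 and 9.97 at 0.3 ppm, and at 10.23, 10.00, 9.83, 10.17 and 9.89 at 90 ppm. Its groups overlapped throughout, with a change of -0.16 against 0 ppm (adjusted p = 0.32). Dhcr7, which completes cholesterol, had a change of -0.41 with an SE of 0.16 (adjusted p = 0.076), and Lss, Fdft1, Tm7sf2 and Ebp ranged from -0.19 to 0.14.

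Among the regulators, the messages of the 2 transcription factors did not pass. Srebf1 was at 10.93, 10.72, 10.84, 10.92 and 10.85 at 0 ppm, at 11.00, 10.91, 10.81, 10.56 and 10.68 at 0.3 ppm, and at 11.32, 10.81, 10.90, 10.92 and 10.99 at 90 ppm. Srebf2 was at 10.29, 10.28, 10.31, 10.19 and 10.27 at 0 ppm, at 10.47, 10.15, 10.27, 10.10 and 10.07 at 0.3 ppm, and at 10.34, 10.03, 9.88, 10.08 and 10.11 at 90 ppm. For Srebf1 the 90 ppm mice overlapped both reference groups, and for Srebf2 they overlapped the 0.3 ppm mice. Every 90 ppm mouse except mouse 165 lay below all 0 ppm mice in Srebf2. Changes against 0 ppm were 0.14 for Srebf1 (adjusted p = 0.40) and -0.18 for Srebf2 (adjusted p = 0.24), and Scap was at 0.13 (adjusted p = 0.45). Insig1, a sterol-regulated retention protein, was at 9.14, 8.84, 8.99, 8.97 and 9.22 at 0 ppm, at 9.13, 8.75, 9.00, 8.83 and 8.79 at 0.3 ppm, and at 8.89, 8.76, 8.70, 8.83 and 8.64 at 90 ppm. Insig1 fell narrowly, by 0.27 against 0 ppm (adjusted p = 0.049), with mouse 165 above the lowest 0 ppm mouse, and the call was lost when any one of 8 of the 10 mice was left out. Its change against 0.3 ppm was -0.14 (adjusted p = 0.39). Stard4, which carries cholesterol between membranes, was at 9.59, 9.79, 9.48, 9.69 and 10.14 at 0 ppm, at 9.42, 9.49, 9.42, 9.50 and 9.54 at 0.3 ppm, and at 8.76, 8.78, 9.15, 9.01 and 9.04 at 90 ppm. Stard4 fell by 0.79 (SE 0.16, adjusted p = 0.00032), 1.73-fold, with no overlap, and by 0.53 against 0.3 ppm (adjusted p = 0.025).

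Acss2, which turns acetate into acetyl-CoA, was the 1 member that rose. It was at 9.51, 9.13, 9.19, 9.70 and 9.43 at 0 ppm, at 9.42, 9.64, 9.56, 9.32 and 9.40 at 0.3 ppm, and at 10.30, 10.02, 9.93, 10.06 and 9.99 at 90 ppm. All 90 ppm mice were above both reference groups. Acss2 rose by 0.67 (SE 0.10, adjusted p = 6.9e-06), 1.59-fold, and by 0.59 against 0.3 ppm (adjusted p = 8.2e-05). Fasn, fatty acid synthase, was at 12.39, 12.23, 12.31, 12.35 and 12.17 at 0 ppm, at 12.53, 12.18, 12.68, 12.08 and 12.23 at 0.3 ppm, and at 12.41, 12.23, 12.00, 12.19 and 12.03 at 90 ppm. Fasn overlapped both reference groups, with a change of -0.12 against 0 ppm (adjusted p = 0.63). Acly, which makes acetyl-CoA from citrate, had a change of -0.24 (adjusted p = 0.053) although no 90 ppm mouse overlapped the 0 ppm mice, and Acaca, which makes malonyl-CoA, was at -0.03. Aacs, which activates acetoacetate for synthesis, was at -0.20 (adjusted p = 0.20). Thrsp, a lipogenic regulator, varied most, with an SE of 0.55 around a change of 0.62 (adjusted p = 0.51). In the last group Scd1, a stearoyl-CoA desaturase, fell by 0.28 (adjusted p = 0.038), a call lost without any one of 7 of the 10 mice. Scd2, Fads1, Fads2, Gpam and Elovl6 ranged from -0.23 to 0.10.

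The comparison with 0.3 ppm, which shares the 90 ppm mice, gave 7 falls and 1 rise among the 34 members, where 4.62% of all genes fell and 5.23% rose. The median change was -0.15 for members and 0.01 for all genes, and 6 members separated completely downward, where 3.20% of all genes did. With the RNA integrity number of the labels as a covariate, 7 members passed against 0 ppm. That fit left out the mice without a number and so held 2 of the 5 mice at 0 ppm. Lost reference mice and the covariate cannot be told apart in it. Stard4 was among the members that did not pass (-0.56, adjusted p = 0.088).

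**Figure D1:**
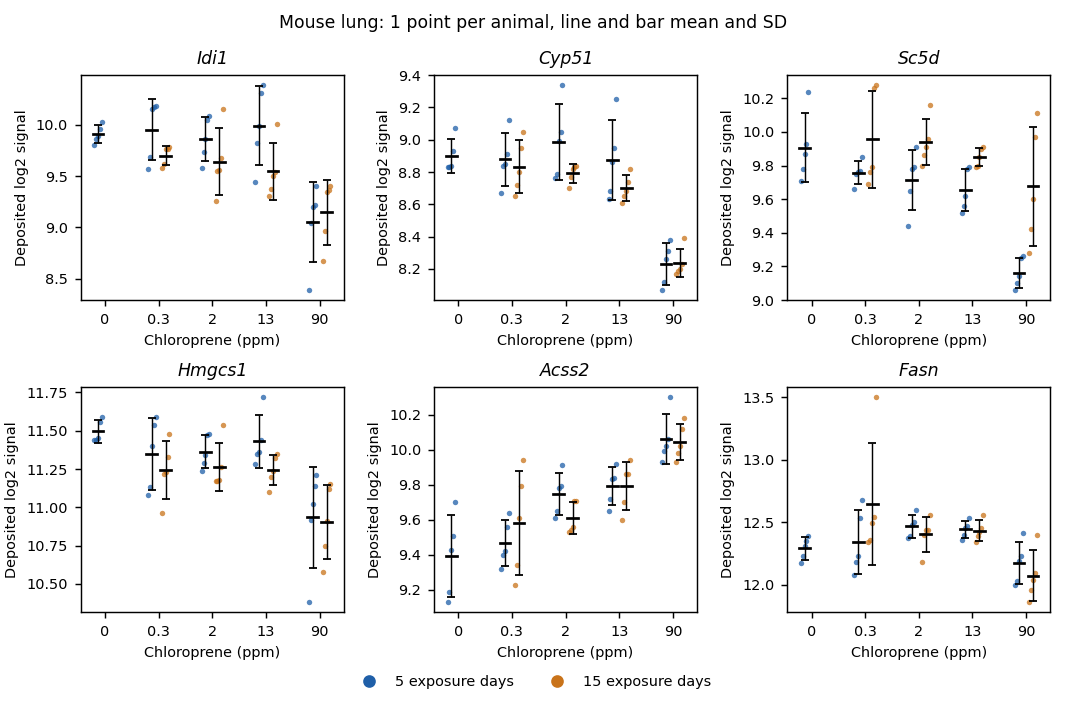
Deposited log2 signal (y axis) of Idi1, Cyp51, Sc5d, Hmgcs1, Acss2 and Fasn in every mouse, by concentration in ppm and exposure days (x axis), 1 point per animal, with a thick line at each group mean and error bars of 1 SD (n = 5). Cyp51 at 90 ppm sits at 8.07 to 8.39 at both times, below the mice of the lower concentrations, Acss2 at 90 ppm sits at 9.93 to 10.30, and 1 mouse at 0.3 ppm for 15 days stands apart in Fasn at 13.50.

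In mice at 90 ppm for 15 days, 12 of 34 members fell and 1 rose against 0.3 ppm, where 3.29% of all genes fell and 4.68% rose. The falls now included 4 of 6 genes of acetyl-CoA and fatty acid supply, with 2 of 6 mevalonate and isoprenoid genes, 3 of 11 genes from squalene to sterol, 1 of 5 regulators and transport genes and 2 of 6 genes of elongation, desaturation and glycerolipid synthesis. The median change was -0.29 against -0.01 over all genes, 88.2% of members against 54.0% of all genes were below zero, and 5 members separated completely downward, where 2.10% of all genes did. Several of these calls were lost without 1 mouse at 0.3 ppm, mouse 127. Those of Idi1, Insig1, Msmo1 and Scd1 were also lost without any one of several other mice. The call of Acaca was lost without any one of 4 of the 10 mice, and that of Gpam without either of 2. The adipocyte marker level of mouse 127 stood apart. That level, the mean over the markers of their signal minus each marker's mean over the mice, was 2.96 in mouse 127 and at most 1.80 in any other mouse.

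Mouse 127 carried a strong fat signature. Its Ucp1 signal, a marker of brown fat, was 13.66, where the 90 ppm mice at 15 days had 6.28 to 7.06, and its Adipoq signal was 12.32. In the same mouse Fasn was at 13.50, Elovl6 at 10.08 and Thrsp at 12.95. Over the group the adipocyte level ran from -0.30 to 2.96 at 0.3 ppm and from -0.58 to 0.17 at 90 ppm. None of 7 adipocyte markers passed limma's test at 15 days, 3 had an unadjusted p under 0.05, and all 7 were below zero with a median change of -0.44. Without mouse 127, 6 members passed in place of 13: Cyp51 (-0.61), Acss2 (0.55), Fasn (-0.36), Acly (-0.29), Lss (-0.36) and Mvd (-0.40). Without mouse 180 of the 90 ppm group, 7 passed.

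Cyp51 showed the fall at this time too. It was at 8.72, 8.95, 8.80, 9.05 and 8.65 at 0.3 ppm and at 8.17, 8.23, 8.20, 8.19 and 8.39 at 90 ppm. There was no overlap, and Cyp51 fell 1.51-fold, by 0.60 (SE 0.10, adjusted p = 4.2e-05). Idi1 was at 9.78, 9.76, 9.62, 9.58 and 9.76 at 0.3 ppm and at 8.67, 9.40, 9.34, 9.36 and 8.96 at 90 ppm. Its fall of 0.55 (SE 0.17) passed narrowly (adjusted p = 0.039) although the groups did not overlap. Lss, which closes squalene epoxide to lanosterol, was at 8.95, 8.72, 8.78, 8.88 and 8.87 against 8.71, 8.34, 8.40, 8.54 and 8.49. The highest 90 ppm mouse lay just under the lowest 0.3 ppm mouse, and Lss fell by 0.34 (adjusted p = 0.0092). Msmo1 fell by 0.34 (adjusted p = 0.036) and Mvd, which makes isopentenyl diphosphate, by 0.33 (adjusted p = 0.038). Each of these 2 calls was lost when any one of 7 of the 10 mice was left out, as was that of Idi1 for 6 of the 10.

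Hmgcs1, Sc5d and Stard4, which fell at 5 days, did not pass at 15 days. Hmgcs1 was at 11.48, 11.22, 11.23, 10.96 and 11.33 at 0.3 ppm and at 10.58, 10.91, 11.15, 11.12 and 10.75 at 90 ppm. The ranges overlapped through mouse 128, the lowest at 0.3 ppm, with a change of -0.34 (SE 0.12, adjusted p = 0.072). Sc5d changed by -0.28 (adjusted p = 0.16), Stard4 by -0.46 (adjusted p = 0.061), and Hsd17b7 by -0.24 (adjusted p = 0.14). Sqle was at 10.08, 10.16, 10.02, 10.25 and 9.82 at 0.3 ppm and at 9.95, 9.78, 9.93, 10.01 and 9.85 at 90 ppm, with overlap and a change of -0.16 (adjusted p = 0.42). Of the others in cholesterol synthesis, Dhcr7 was at -0.45 (adjusted p = 0.082), Fdps at -0.37 (adjusted p = 0.054) and Nsdhl at -0.23 (adjusted p = 0.060), while Mvk, Pmvk, Fdft1, Tm7sf2 and Ebp ranged from -0.15 to 0.19.

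Insig1 was at 9.16, 9.21, 9.08, 8.97 and 8.84 at 0.3 ppm and at 8.77, 8.62, 8.77, 8.82 and 8.74 at 90 ppm. Without overlap it fell by 0.31 (adjusted p = 0.040), a call lost when any one of 7 of the 10 mice was left out. Srebf2 was at 10.52, 10.46, 10.35, 10.19 and 10.58 against 10.47, 9.86, 10.04, 10.25 and 10.07, and mouse 177 at 90 ppm was as high as the reference mice. The change in Srebf2 was -0.28 (adjusted p = 0.072). Srebf1 was at 11.23, 11.11, 10.91, 11.03 and 10.95 against 11.28, 10.72, 11.01, 11.00 and 11.02, a change of -0.04 (adjusted p = 0.90), and Scap changed by -0.13 (adjusted p = 0.55).

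Fasn was at 12.54, 12.49, 13.50, 12.36 and 12.34 at 0.3 ppm and at 12.40, 11.96, 12.04, 12.09 and 11.86 at 90 ppm. Mouse 127 was the high value, and mouse 177 at 90 ppm overlapped the reference. Fasn fell by 0.58 (SE 0.13, adjusted p = 0.0037), and by 0.36 without mouse 127 (adjusted p = 0.020). Acly was at 12.48, 12.39, 12.70, 12.34 and 12.35 against 12.29, 11.89, 12.27, 12.13 and 11.93. The groups did not overlap, and Acly fell by 0.35 (adjusted p = 0.0065), or by 0.29 without mouse 127 (adjusted p = 0.039). Acaca was at 10.11, 10.11, 11.11, 9.99 and 9.92 against 10.00, 9.76, 9.89, 9.79 and 9.71. Its fall of 0.42 (adjusted p = 0.025) was -0.21 without mouse 127 (adjusted p = 0.14). Aacs was at 8.82, 9.04, 9.53, 9.11 and 8.87 against 8.94, 8.55, 8.59, 8.72 and 8.66, and mouse 177 overlapped. Aacs fell by 0.38 (adjusted p = 0.014), and its change was -0.27 without mouse 127 (adjusted p = 0.092).

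Acss2 rose again. It was at 9.34, 9.61, 9.94, 9.79 and 9.23 at 0.3 ppm and at 10.18, 9.98, 9.93, 10.12 and 10.02 at 90 ppm. Mouse 179 at 90 ppm lay just under mouse 127, and the others lay above the reference. Its rise was 0.46 (SE 0.10, adjusted p = 0.0025), and 0.55 without mouse 127 (adjusted p = 0.00034). Gpam, which begins glycerolipid synthesis, was at 12.00, 12.16, 12.29, 12.14 and 11.84 against 11.73, 11.85, 11.95, 11.70 and 12.03 and fell by 0.24 with overlap (adjusted p = 0.012). Scd1 fell by 0.30 (adjusted p = 0.040), lost when any one of 6 of the 10 mice was left out. Without mouse 127 neither passed, at -0.18 for Gpam (adjusted p = 0.068) and -0.24 for Scd1 (adjusted p = 0.15). Elovl6, a fatty acid elongase, was at 7.19, 7.69, 10.08, 7.59 and 7.25 against 7.21, 7.38, 7.96, 7.45 and 6.85 and did not pass (-0.59, adjusted p = 0.35). Thrsp did not pass either (-0.76, adjusted p = 0.52), and Scd2, Fads1 and Fads2 ranged from -0.18 to 0.06.

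**Figure D2:**
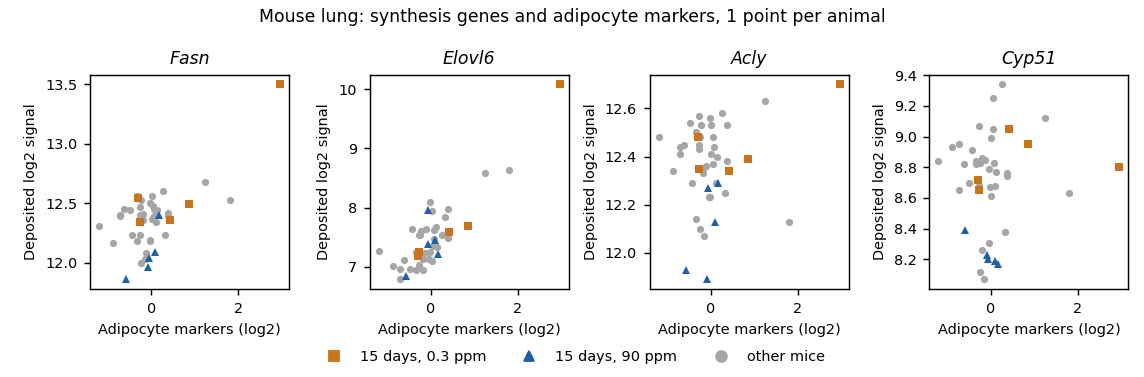
Deposited log2 signal (y axes) of Fasn, Elovl6, Acly and Cyp51 against the adipocyte marker level (x axes, log2, mean of 0 per marker over the mice), 1 point per mouse. Mouse 127 of the 15-day 0.3 ppm group (orange square at 2.96) stands apart with the highest Fasn, Elovl6 and Acly signals, while its Cyp51 signal of 8.80 lies among the other 0.3 ppm mice and all 90 ppm mice of that time (blue triangles) lie at 8.39 or lower in Cyp51.

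The labels leave some doubt at this time. In the 15-day groups 9 mice are given 5 days in another field than their title, 3 of them at 0.3 ppm and 3 at 90 ppm. A letter follows the number of 5 mice of these groups and of mouse 121 in the 5-day 0.3 ppm group. Without the 9 mice, 2 animals per group remained at 0.3 and 90 ppm and 1 member passed, Acss2 (0.86, adjusted p = 0.00023), with Cyp51 at -0.50 (adjusted p = 0.077). Without the lettered mice, 3 per group remained and Acss2 (0.62, adjusted p = 0.0033) and Cyp51 (-0.62, adjusted p = 0.0045) passed. With arrays of this time alone in the fit, 6 passed.

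Whether the change at 90 ppm differed between the times was tested directly, against 0.3 ppm at each time. None of the 34 members passed (limma), where 0.0435% of all genes did, and 2 had an unadjusted p under 0.05. Fasn had the smallest p, with a change lower by 0.41 at 15 days (difference -0.41, adjusted p = 0.74), followed by Gpam (-0.18) and Acaca (-0.33, adjusted p = 0.74). So the larger number of fatty acid genes past the threshold at 15 days was not shown to differ from 5 days.

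Lower concentrations changed few members in the mouse. At 5 days none of 34 passed at 0.3 ppm against 0 ppm by limma, where 0% of all genes did, and 1 had an unadjusted p under 0.05. The smallest p belonged to Pmvk, phosphomevalonate kinase (0.29, adjusted p = 1). At 2 ppm none passed by limma, where 1.20% of all genes did, and 4 had an unadjusted p under 0.05, led by Acss2 (0.36, adjusted p = 0.069), Stard4 (-0.53, adjusted p = 0.082) and Pmvk (0.40, adjusted p = 0.12). Without mouse 104 at 0 ppm or mouse 134 at 2 ppm, 1 member passed. At 13 ppm Acss2 rose by 0.40 (SE 0.10, adjusted p = 0.034) as 1 of 34 members, where 1.30% of all genes passed. Acss2 stood at 9.61 to 9.91 at 2 ppm and at 9.65 to 9.92 at 13 ppm, between the 0 ppm range of 9.13 to 9.70 and the 90 ppm range of 9.93 to 10.30. These ranges touched the 0 ppm range at their lower ends and stayed under the 90 ppm range. The rise at 13 ppm was lost when mouse 102, 103 or 105 at 0 ppm or mouse 151, 152 or 154 at 13 ppm was left out, 2 members passed without mouse 149, and the rise was lost with either the integrity number or the adipocyte level as a covariate.

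At 15 days none of 34 members passed at 2 ppm by limma, where 0.109% of all genes did, nor at 13 ppm, where 0.326% did. At 2 ppm 3 members had an unadjusted p under 0.05, with Thrsp at -1.55, Elovl6 at -0.83 and Acaca at -0.25 (adjusted p = 1 for each). At 13 ppm 6 did, led by Hsd17b7 (-0.24, adjusted p = 0.75), Thrsp (-1.35, adjusted p = 0.76) and Acaca (-0.28, adjusted p = 0.83). Thrsp, Elovl6 and Acaca are high in mouse 127 of the shared reference group.

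**Figure D3:**
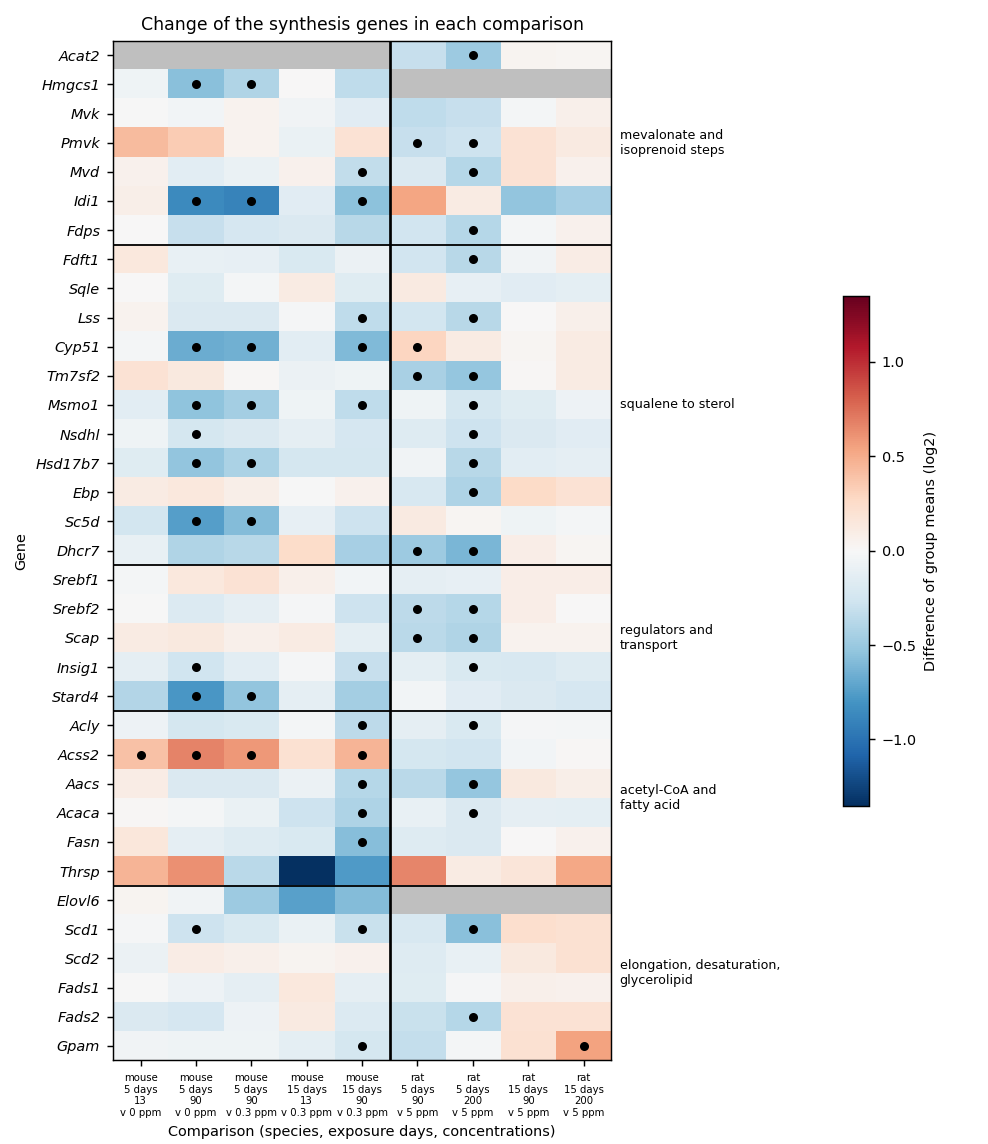
Change of each member (rows, grouped by role) in 9 comparisons (columns), as the difference of group means in log2, blue for lower and red for higher, with a dot where limma's adjusted p was under 0.05 and grey where the gene was not measured or not kept. Cyp51, Idi1 and Msmo1 carry dots in every mouse comparison of 90 ppm, Acss2 carries red dots in the mouse and none in the rat, and the rat dots lie mostly at 200 ppm for 5 days.

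In rats at 200 ppm for 5 days, 20 of 33 members fell and none rose against 5 ppm. Genes in general fell more often than they rose: 31.6% of all genes fell and 4.68% rose. The median change over all genes tested was -0.14, against -0.28 for the members. Falls were found in 4 of 6 mevalonate and isoprenoid genes, 8 of 11 genes from squalene to sterol, 3 of 5 regulators and transport genes, 3 of 6 genes of acetyl-CoA and fatty acid supply and 2 of 5 genes of elongation, desaturation and glycerolipid synthesis. Of the members 87.9% and of all genes 68.7% were below zero. For 6 members every 200 ppm rat lay below every 5 ppm rat, where 13.5% of all genes separated in that way. Without rat 217 of the 5 ppm group 8 members passed, and with the adipocyte marker level as a covariate none did, while the 20 changes stayed below zero, from -0.32 for Scd1 to -0.06 for Pmvk.

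Rat 217 had the highest adipocyte marker level of its group, 0.51, where the group began at -0.05 and the 200 ppm rats ran from -0.41 to 0.04. Of 5 adipocyte markers tested Cidec (-0.62) and Cidea (-0.45) fell, where 31.6% of all genes fell, and the median over the 5 was -0.51. The part of adipose tissue in the falls was not tested. The 8 members that passed without rat 217 were Acly, Scd1, Srebf2, Nsdhl, Ebp, Aacs, Tm7sf2 and Hsd17b7.

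Mvd was at 7.49, 7.10, 6.93, 7.07 and 6.74 at 5 ppm and at 6.79, 6.67, 6.78, 6.58 and 6.54 at 200 ppm. Rat 217 was the highest and rat 222 at 5 ppm overlapped the exposed rats. Mvd fell by 0.39 (SE 0.11, adjusted p = 0.0083). Acat2, which condenses acetyl-CoA, fell by 0.49 (adjusted p = 0.0087), Fdps, which makes farnesyl diphosphate, by 0.38 (adjusted p = 0.013), and Pmvk by 0.28 (adjusted p = 0.043, lost without any one of 7 of the 10 rats). Mvk did not pass at -0.31 (adjusted p = 0.052), nor did Idi1 at 0.11 (SE 0.31, adjusted p = 0.78).

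Ebp, a sterol isomerase, was at 9.21, 9.03, 8.77, 8.96 and 8.83 at 5 ppm and at 8.50, 8.63, 8.71, 8.44 and 8.44 at 200 ppm. The groups did not overlap, and Ebp fell by 0.42 (SE 0.10, adjusted p = 0.0034). Nsdhl was at 9.05, 9.05, 8.93, 8.94 and 8.86 against 8.67, 8.68, 8.83, 8.67 and 8.59, and fell by 0.28 without overlap (adjusted p = 0.0041). Tm7sf2, a sterol reductase, was at 8.45, 7.96, 7.63, 7.93 and 7.83 against 7.42, 7.24, 7.72, 7.37 and 7.44. Rat 267 at 200 ppm overlapped the lowest 5 ppm rat, and Tm7sf2 fell 1.44-fold, by 0.52 (adjusted p = 0.0041). Hsd17b7 was at 7.82, 7.81, 7.64, 7.89 and 7.72 against 7.47, 7.17, 7.66, 7.50 and 7.25, with rat 267 again the one that overlapped, and fell by 0.37 (adjusted p = 0.0063). Dhcr7 had the largest change of the 33 members, a 1.54-fold fall (-0.62, SE 0.17, adjusted p = 0.0085), and -0.44 without rat 217 (adjusted p = 0.062). Lss, Fdft1 and Msmo1 fell by 0.37, 0.37 and 0.24.

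Cyp51 and Sc5d, which fell in mice at 90 ppm for 5 days, did not pass in rats at 200 ppm for 5 days, with changes of 0.11 (adjusted p = 0.33) and 0.03 (adjusted p = 0.76). Concentrations and references differ between the species, and the difference between species was not tested. Sqle was at 8.90, 9.01, 8.91, 9.14 and 8.75 at 5 ppm and at 8.97, 8.74, 8.95, 8.83 and 8.66 at 200 ppm, overlapping, with a change of -0.11 (adjusted p = 0.39).

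Srebf2 had the smallest adjusted p of the rat members. It was at 10.47, 10.17, 10.01, 10.22 and 9.87 at 5 ppm and at 9.93, 9.60, 9.89, 9.80 and 9.59 at 200 ppm. Rat 222 at 5 ppm lay within the range of the 200 ppm rats, and Srebf2 fell by 0.39 (SE 0.09, adjusted p = 0.0029). Scap was at 9.85, 9.46, 9.36, 9.47 and 9.18 against 9.14, 9.00, 9.19, 8.94 and 9.00, overlapping by 1 rat on each side, and fell by 0.41 (adjusted p = 0.0072). Insig1 was at 10.73, 10.82, 10.82, 10.91 and 10.90 against 10.72, 10.53, 10.64, 10.52 and 10.72. The groups did not overlap, and the fall of 0.21 passed narrowly (adjusted p = 0.048). It did not pass when any one of 9 of the 10 rats was left out, with any of the 3 covariates, without a filter, after quantile normalization or with arrays of the same time alone. Srebf1 was at 10.12, 9.79, 9.62, 9.59 and 9.48 against 9.80, 9.56, 9.65, 9.50 and 9.56, a change of -0.11 with overlap (adjusted p = 0.52), and Stard4 was at -0.15 (adjusted p = 0.20).

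Aacs was at 8.99, 8.66, 8.51, 8.69 and 8.31 at 5 ppm and at 8.26, 7.95, 8.30, 8.11 and 7.94 at 200 ppm. The groups just missed each other, and Aacs fell by 0.52 (SE 0.14, adjusted p = 0.0072). Acly fell by 0.21 (adjusted p = 0.012) and Acaca by 0.20 (adjusted p = 0.018). Fasn was at 12.29, 12.03, 12.00, 11.98 and 11.79 against 11.87, 11.68, 11.98, 11.93 and 11.62, where 3 of the 5 ppm rats lay above every 200 ppm rat and the others overlapped, with a change of -0.20 (adjusted p = 0.11). Acss2, which rose in mice, had a change of -0.26 in rats (adjusted p = 0.14), and Thrsp was at 0.11. Scd1 fell by 0.56 (adjusted p = 0.011) and Fads2, a desaturase of polyunsaturated fatty acids, by 0.39 (adjusted p = 0.011), while Scd2, Fads1 and Gpam ranged from -0.10 to -0.02.

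**Figure D4:**
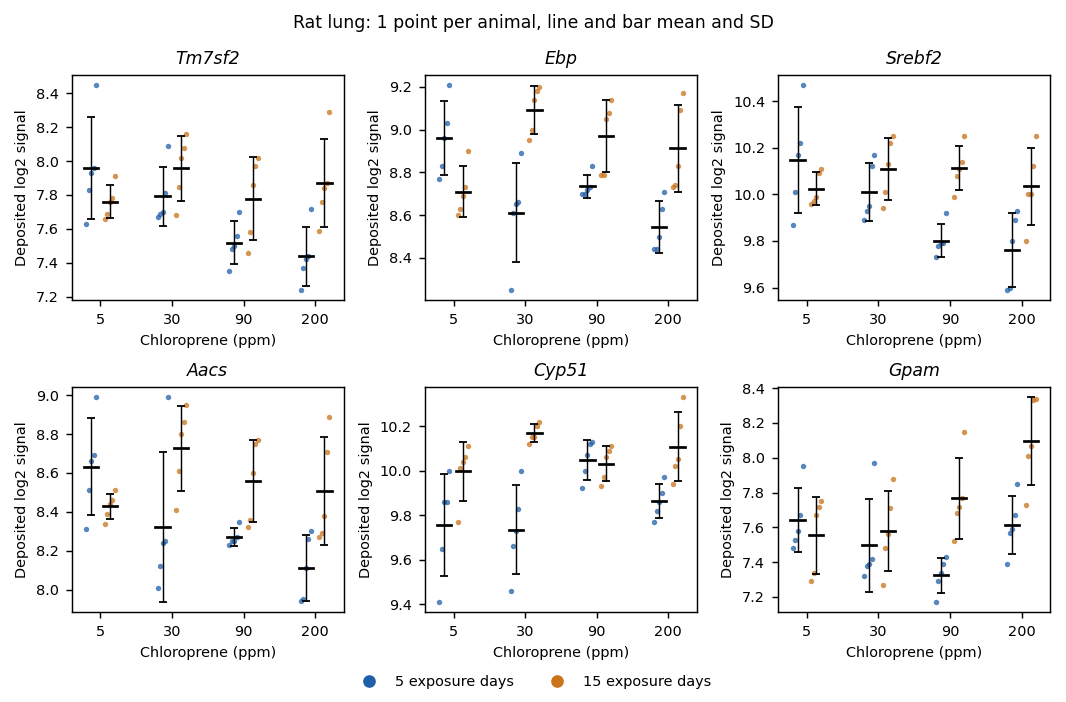
Deposited log2 signal (y axis) of Tm7sf2, Ebp, Srebf2, Aacs, Cyp51 and Gpam in every rat, by concentration in ppm and exposure days (x axis), 1 point per animal, with a thick line at each group mean and error bars of 1 SD (n = 5). At 5 days Ebp falls from 8.77 to 9.21 at 5 ppm to 8.44 to 8.71 at 200 ppm, while at 15 days the 200 ppm rats lie at 8.73 to 9.17, and Gpam at 15 days is higher at 200 ppm.

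At 90 ppm for 5 days 5 of 33 rat members fell and 1 rose, where 19.5% of all genes fell and 4.13% rose, so the share of members that fell was no higher than that of all genes. Srebf2 (-0.35, adjusted p = 0.018), Tm7sf2 (-0.44, adjusted p = 0.025), Scap (-0.36, adjusted p = 0.030), Dhcr7 (-0.49, adjusted p = 0.042) and Pmvk (-0.31, adjusted p = 0.043) fell. Cyp51 rose by 0.29 (adjusted p = 0.030), with the 5 ppm rats at 9.41, 9.86, 9.86, 9.65 and 10.00 and the 90 ppm rats at 10.12, 10.07, 9.92, 10.13 and 10.00. The second Cyp51 probe set went the other way and fell by 0.26 (adjusted p = 0.049 over all kept probe sets), so the direction of Cyp51 is not settled here. Rat 217 was again the one apart, the lowest 5 ppm rat in Cyp51 and the highest in each of the 5 genes that fell. Leaving out rat 217 left no call and leaving out rat 222 gave 19, and counts of 1 to 3 came from leaving out rats 219, 221, 250, 251, 252 or 253. Integrity numbers ran from 9.2 to 9.3 in the 90 ppm rats and from 7.3 to 8.5 in the 5 ppm rats, without overlap. With the integrity number as a covariate no member passed, and concentration and RNA quality cannot be told apart in this comparison. At 30 ppm none passed by limma, where 0% of all genes did, and 6 had an unadjusted p under 0.05, among them Ebp (-0.35, adjusted p = 0.25), Scd2 (-0.18) and Pmvk (-0.29, adjusted p = 0.31). Without rat 239 of the 30 ppm group 3 members passed.

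At 15 days few rat members passed. At 200 ppm 1 of 33 passed, where 0.817% of all genes did, and the median change was 0.06 against -0.01 over all genes. Gpam was at 7.29, 7.75, 7.67, 7.72 and 7.34 at 5 ppm and at 8.33, 8.01, 8.07, 7.73 and 8.34 at 200 ppm. Rat 280 overlapped the reference and the others lay above it, and Gpam rose by 0.54 (SE 0.13, adjusted p = 0.041). The second Gpam probe set did not pass, at 0.28 (adjusted p = 0.14 over all kept probe sets). The rise did not pass without any one of rats 225, 227, 228, 229, 277, 280 or 282, 2 members passed without rat 281, and none passed with either measure of RNA quality as a covariate. With the integrity number the rise in Gpam was 0.49 (adjusted p = 0.13), and with the 3′ to 5′ difference of control transcripts it was 0.28 (adjusted p = 1). None passed with arrays of this time alone. Srebf2 was at 9.97, 9.99, 10.09, 10.11 and 9.96 against 10.12, 9.80, 10.00, 10.00 and 10.25, with a change of 0.01 (adjusted p = 0.97). Srebf1 was at 9.59, 9.69, 9.70, 9.99 and 9.53 against 10.03, 9.66, 9.67, 9.48 and 10.12, a change of 0.09 (adjusted p = 0.73). Insig1 was at 11.11, 10.80, 10.89, 10.83 and 11.04 against 10.89, 10.65, 10.58, 10.85 and 10.85, a change of -0.17 (adjusted p = 0.28). In these 3 regulators the groups overlapped. Sqle was at 9.20, 8.99, 9.16, 9.17 and 9.11 against 9.21, 8.91, 9.04, 9.00 and 8.80 (-0.13, adjusted p = 0.52). Fasn was at 11.97, 11.80, 12.09, 12.20 and 11.81 against 12.07, 11.87, 12.07, 11.72 and 12.44 (0.06, adjusted p = 0.80). Both overlapped, and the members without values here ranged from -0.45 for Idi1 to 0.52 for Thrsp. At 30 ppm Ebp rose by 0.38 (adjusted p = 0.044) as 1 of 33, where 1.66% of all genes passed, and did not pass without any one of rats 225, 227, 228, 229, 241, 242, 243 or 245. At 90 ppm none passed by limma, where 0.309% of all genes did, and 4 had an unadjusted p under 0.05, led by Nsdhl (-0.19, adjusted p = 0.24), Insig1 (-0.22, adjusted p = 0.27) and Ebp (0.26, adjusted p = 0.27).

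The rat change at 200 ppm differed between the times for 9 of 33 members, all with the higher change at 15 days, where 8.81% of all genes differed in that direction and 2.62% in the other. They were Mvd (a difference of 0.46), Tm7sf2 (0.63), Ebp (0.62), Srebf2 (0.40), Aacs (0.60), Scd1 (0.77), Scd2 (0.31), Fads2 (0.60) and Gpam (0.57), with adjusted p from 0.033 to 0.049. The second Gpam probe set had a difference of 0.04 (adjusted p = 0.82 over all kept probe sets). The 3 further Scd2 probe sets were at 0.58, 0.47 and 0.47, and 1 of them passed. The median difference was 0.38 for the members and 0.15 for all genes. No call was left without any one of rats 217, 219, 221, 269, 225, 227, 229, 277 or 282. Without rat 266 or 268 the count was 1, without rat 265 it was 4, and without rat 222, 228, 279, 280 or 281 it was 14 to 17. None passed with either quality measure or the adipocyte level as a covariate. With the integrity number the differences stayed about as large, at 0.71 for Scd1, 0.63 for Tm7sf2, 0.59 for Ebp and 0.24 for Scd2 (adjusted p = 0.10 to 0.11 for the 9), and with the 3′ to 5′ difference they were 0.73, 0.55, 0.50 and 0.31. With the adipocyte level they were smaller, at 0.44 for Scd1, 0.28 for Tm7sf2, 0.36 for Ebp, 0.20 for Aacs and 0.14 for Mvd. Integrity numbers ran from 7.3 to 8.5 and from 7.1 to 8.7 in the 5-day rats at 5 and 200 ppm, and from 8.5 to 9.4 and from 8.1 to 9.2 in the 15-day rats.

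Genes with several probe sets were compared across them, each with its adjusted p over all kept probe sets. In mice at 90 ppm for 5 days against 0 ppm, all 4 Hmgcs1 probe sets were lower (-0.64 to -0.54), as were both of Idi1 (-1.14 and -0.86), both of Cyp51 (-0.87 and -0.67) and the 3 of Sc5d (-0.74 to -0.26), and both Acss2 probe sets were higher (0.65 and 0.67). Of 13 further probe sets of the genes called there, 13 had the direction of the one used and 11 passed. Stard4 had 2 further probe sets at 5 days against 0 ppm, of which 1 fell (-0.64, adjusted p = 3.5e-06) and 1 did not pass (-0.80, SE 0.28, adjusted p = 0.053). Against 0.3 ppm they were at -0.55 (adjusted p = 6.9e-05) and -0.52 (adjusted p = 0.28). At 15 days the first of them fell (-0.47, adjusted p = 0.0010), where the one used did not pass, and the second was at -0.50 (adjusted p = 0.39). Of the 2 further Hsd17b7 probe sets 1 fell against both references (-0.34 and -0.27), and the other did not pass, at -0.19 against 0 ppm and 0.01 against 0.3 ppm.

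Agreement between probe sets was lower in the other comparisons. In mice at 90 ppm for 15 days, of 12 further probe sets of called genes 10 had the direction of the one used and 4 passed. The second Acss2 probe set was at 0.40 (SE 0.16, adjusted p = 0.15), that of Mvd at -0.20, that of Gpam at -0.12 and that of Scd1 at -0.41, none of which passed. Acly and Aacs each had 1 further probe set that fell (-0.43 and -0.45) and 1 that did not pass (-0.24 and -0.09). Another Acaca probe set was at 0.10 and another of Lss at 0.01, against the falls given above. In rats at 200 ppm for 5 days 1 of 6 further probe sets of called genes passed and 3 shared the direction. Those of Acaca (0.01), Scap (0.04) and Hsd17b7 (0.11) did not share the falls, and the second one of Cyp51 was at -0.23 (adjusted p = 0.057).

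Some probe sets passed where the one used for the gene did not. In mice at 90 ppm for 5 days against 0 ppm, a further probe set fell for Acly (-0.32, adjusted p = 0.036) and for Fads2 (-0.33, adjusted p = 0.028). At 15 days 1 of Hsd17b7 fell (-0.28, adjusted p = 0.036), besides that of Stard4 given above. In rats the second Hsd17b7 probe set rose at 90 ppm for 5 days (0.41, adjusted p = 0.027) and at 15 days at 30 ppm (0.61, adjusted p = 0.012) and 200 ppm (0.50, adjusted p = 0.026). Of 3 further Scd2 probe sets 1 rose at 200 ppm for 15 days (0.66, adjusted p = 0.025). Another Scd2 probe set fell after 5 days at 90 ppm (-0.68, adjusted p = 0.024) and 200 ppm (-0.60, adjusted p = 0.021).

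Neighbouring lipid genes outside the members were also counted. In mice at 90 ppm for 5 days against 0 ppm, where 7.35% of all genes fell and 8.99% rose, 2 of 14 other synthesis genes rose and 1 fell, and of 13 genes of sterol uptake, export and sensing 1 rose and 2 fell. Elovl1, an elongase of very long fatty acids, fell by 0.81 (adjusted p = 4.1e-06) and by 0.79 at 15 days (adjusted p = 1.2e-05). Ch25h, which makes 25-hydroxycholesterol, fell by 0.75 (adjusted p = 0.00039), and Abca1, a cholesterol exporter, rose by 0.83 (adjusted p = 0.0018). At 15 days Abca1 again rose by 0.83 (adjusted p = 0.0036) and Ch25h fell by 0.62. Me1, which supplies NADPH, rose at 2 ppm (0.33), 13 ppm (0.30) and 90 ppm (0.38) after 5 days. In rats at 200 ppm for 5 days 1 of 11 other synthesis genes rose, Me1 (0.31, adjusted p = 0.0045), and 5 fell, led by the citrate carrier Slc25a1 (-0.58, adjusted p = 0.0023). Of 14 rat genes of sterol uptake, export and sensing 3 fell, a lower share than the 31.6% of all genes, led by Cyp27a1, a sterol hydroxylase (-0.47, adjusted p = 0.0061), and Npc2 (-0.20, adjusted p = 0.0067).

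Cell type markers were counted in the same comparisons, with the shares of all genes given above as the background. In mice at 90 ppm for 5 days, where 7.35% of all genes fell and 8.99% rose, 4 of 4 B cell markers fell (median -1.35), 3 of 6 T and natural killer cell markers fell, and 4 of 6 ciliated cell markers rose. Of 9 alveolar type 2 markers 3 fell, namely Sftpa1 (-0.12), Lpcat1 (-0.38) and Etv5 (-0.55). None of 7 adipocyte markers passed in that comparison by limma, none had an unadjusted p under 0.05, and their median was 0.32. At 15 days, where 3.29% fell and 4.68% rose, 4 of 6 ciliated markers rose, 1 of 9 alveolar type 2 markers fell (Etv5, -0.63), and 0 of 4 B cell markers passed by limma, although 3 had an unadjusted p under 0.05 (median -0.64). In rats at 200 ppm for 5 days 3 of 10 alveolar type 2 markers were past the threshold downward, Abca3 (-0.37), Napsa (-0.24) and Lpcat1 (-0.42), a share close to the 31.6% of all genes. The cardiac markers Myh6 (2.33) and Myl7 (2.46) rose, and 2 of 4 club cell markers rose. The part of cell makeup in the changes of the synthesis genes was not tested.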

How the data were processed

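Lung RNA of 45 mice and 40 rats was measured on 1 Affymetrix array per animal. Per the labels' protocols, RNA was prepared with Trizol and RNeasy columns and given a biotin label for hybridization. What the authors deposited is a log2 signal for each probe set; how it was summarized and normalized is not given in the sources used here. Mouse values spanned 3.474 to 15.339 and rat values 3.066 to 15.137, with array medians of 7.272 to 7.374 and 7.247 to 7.324. Between arrays of a species the correlation was at least 0.97084 (mouse) and 0.95082 (rat) and at most 0.99783 and 0.9976, so no pair was taken as 1 library. The number of arrays limits the precision.

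Gene names came from the array annotation, which gives 1 symbol for 34945 of 45101 mouse and 20826 of 31099 rat probe sets, several for 932 and 436, and none listed for 9211 and 9831. Only probe sets with exactly 1 symbol were used, and control ones were dropped. Probe sets were kept if 5 or more arrays had signals over percentile 40 of all values of that species (mouse 6.67, rat 6.65). Of a gene's kept probe sets, the one with the highest mean stood for it. Each species was fitted with limma 3.58.1 in R 4.3.3 over all its arrays, with a mean per group and eBayes, and two-sided p-values got a Benjamini-Hochberg adjustment across every gene tested in that comparison (threshold 0.05). There were 16 comparisons, 2 of them differences between times. The script was tested on simulated data. Leaving out single animals, both RNA quality measures, the adipocyte marker level, label conflicts, the probe set rule, the filter and quantile normalization were tried as alternatives. The 5 mice and 2 rats without an integrity number were left out of the fits that used it. The 3′ to 5′ difference compares the ends of the Gapdh and beta-actin control transcripts on each array.

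The members and lists were chosen with earlier results of these data known. Values in every animal are given for up to 8 members with the smallest adjusted p at the highest concentration and, whatever their result, for Srebf1, Srebf2, Insig1, Hmgcs1, Sqle and Fasn. At lower concentrations the members past the threshold are named, or else the 3 with the smallest p. Idi1 at 15 days and in rats, Elovl6, Thrsp and rat Cyp51 were added after their values were seen, as was the alternative without mouse 127. Promoter letters came from RefSeq (GRCm38.p6).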

Additional observations from a re-analysis of the deposited data

Results flagged for a closer look

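In 3 of 101 group values checked, 1 animal lay apart from the other 4 by Dixon's criterion, where chance alone gives about 1 in 20. Cyp51 in mouse 181 at 90 ppm for 15 days was at 8.39, with the next mouse of its group at 8.23. Fasn in mouse 127 at 0.3 ppm for 15 days was at 13.50, with the next at 12.54. Acaca in the same mouse was at 11.11, with the next at 10.11.

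In rats the change from 5 to 200 ppm differed between 15 and 5 days for 9 of 33 members by limma's interaction test. All 9 had the higher change at 15 days, where 8.81% of all genes differed in that direction and 2.62% in the other. Leaving out 1 animal gave counts of 0 to 17. The differences (15 days minus 5 days) with their adjusted p were 0.46 for Mvd (0.049), 0.63 for Tm7sf2 (0.036), 0.62 for Ebp (0.033) and 0.40 for Srebf2 (0.045). They were 0.60 for Aacs (0.047), 0.77 for Scd1 (0.039), 0.31 for Scd2 (0.040), 0.60 for Fads2 (0.035) and 0.57 for Gpam (0.045). The second Gpam probe set did not share this difference (0.04).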

How the results depend on the processing

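Outside the alternatives that leave out 1 animal, 111 member counts stayed within 1.5 times their value and 26 did not. In mice at 5 days, the count at 2 ppm (0) became 1 with same-time arrays, 3 without conflicting durations, 2 without lettered mice and 1 without mouse 127; at 13 ppm (1) it became 0 with mean probe sets, the integrity number or the adipocyte level; at 90 ppm against 0 ppm (11) it became 7 with the integrity number. At 15 days the count at 90 ppm (13) became 6 with same-time arrays, 1 without conflicting durations, 2 without lettered mice and 6 without mouse 127. In rats at 5 days the count at 90 ppm (6) became 0 with the integrity number and 16 with the 3′ to 5′ difference, and at 200 ppm (20) it became 0 with the adipocyte level. In rats at 15 days the count at 30 ppm (1) became 0 with either quality measure, the adipocyte level or same-time arrays, and at 200 ppm (1) 0 with either quality measure or same-time arrays. The rat difference between times (9) became 5 without a filter and 0 with either quality measure or the adipocyte level. The 5-day groups at 0 and 2 ppm hold no mouse with a conflicting duration or a letter, nor mouse 127, so their means did not change. In those fits only the estimate of spread shared by the mouse arrays changed. Fits with the integrity number also left out the animals without one. The cause of the other moves was not tested.

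Leaving out 1 animal gave counts of 0 to 1 (mouse, 5 days, 2 ppm), 0 to 2 (13 ppm), 8 to 13 (90 ppm against 0 ppm), 7 to 8 (90 against 0.3 ppm) and 6 to 14 (15 days, 90 ppm). In rats they were 0 to 3, 0 to 19 and 8 to 21 at 30, 90 and 200 ppm for 5 days, 0 to 1 and 0 to 2 at 30 and 200 ppm for 15 days, and 0 to 17 for the difference between times. Other probe sets turned the direction of Hsd17b7 (0.01, mouse, 5 days, 90 against 0.3 ppm), Acaca (0.10) and Lss (0.01) in mice at 15 days, and Acaca (0.01), Scap (0.04) and Hsd17b7 (0.11) in rats at 200 ppm for 5 days. Under every alternative tried, 6 of 11 members kept their call in mice at 90 against 0 ppm for 5 days (Hmgcs1, Msmo1, Sc5d, Acss2, Idi1 and Cyp51) and 4 of 8 against 0.3 ppm (Msmo1, Acss2, Idi1 and Cyp51), but 0 of 13 at 15 days, 0 of 20 and 0 of 1 in rats at 200 ppm for 5 and 15 days, and 0 of 9 for the rat difference between times. No paired analysis was possible because animal numbers differ between the groups.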

Other observations

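Correlations between members from animal to animal were computed within groups. Each signal was taken as its deviation from the group mean, and the values below are descriptions over members that share arrays. In the 40 rats the median correlation over 528 pairs of members was 0.37, with 117 pairs below 0. Idi1 ran against the others: its median correlation with the 32 other members was -0.55, and 26 of the 32 were below 0. Stard4 had a median of -0.36, with 23 of 32 below 0, and Cyp51 one of -0.02. In the 45 mice the median over 561 pairs was 0.17, and Idi1 (-0.20, 24 of 33 below 0) and Hmgcs1 (-0.15, 23 of 33 below 0) had the lowest medians.

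Idi1 and Dhcr7 lie in 1 pathway and were picked out of the 528 pairs after their values were seen, so their correlations are given without a test. The 4 rats with the lowest Idi1 signals were rats 217 (8.85), 239 (8.17), 277 (8.65) and 282 (8.68), and their Dhcr7 signals were 8.92, 8.26, 8.48 and 8.52. The titles of rats 239 and 282, and of rat 269, have a form that no other rat title has. Its meaning is not given, and its part in the pattern was not tested. Over the 40 rats Pearson's r was -0.71 and Spearman's rho -0.67. Without the 2 rats farthest from the median r was -0.71, and over deviations from group means it was -0.73. In the 45 mice r was 0.16 and rho 0.06 over all values, while over deviations r was -0.41 and rho -0.34, with r at -0.29 without the 2 farthest mice. In rats Idi1 also moved with the 3′ to 5′ difference of the control probe sets (r 0.52, rho 0.55). Dhcr7 showed little relation to it, with the opposite sign (r -0.11, rho -0.11). Over deviations from group means r was 0.53 for Idi1 and -0.23 for Dhcr7. The part of RNA quality in the pattern was not tested.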
